A study of Mus musculus with 4 samples.

Results

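The open chromatin regions described here are the ATAC-seq peaks whose assigned gene is an olfactory receptor (a gene symbol of Olfr followed by a number) in the peak table of mouse bone marrow progenitor cells. They number 271 of 130941 peaks (0.207% of the table) and are assigned to 160 genes. The cells were Lin-Sca1+ckit+ bone marrow cells, the fraction that holds blood stem cells and early progenitors, sorted from mice 10 weeks old. There were 2 wild type and 2 Helios null mice with 1 fast-ATAC library each; Helios, encoded by Ikzf2, is a zinc finger transcription factor of the Ikaros family. The labels give neither the strain nor the deleted part of the gene.

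Olfactory receptors are G protein-coupled receptors of the sensory neurons of the nose and form the largest gene family of the mouse. They lie in tandem clusters on most chromosomes, and each sensory neuron expresses a single receptor gene from a single allele, while the remaining receptor genes stay packed in heterochromatin. They were chosen here as genes silent in blood cells, and no RNA is analysed here. A peak with an olfactory receptor name shows where chromatin was open near such a gene and not that the receptor was made. A peak table names each peak after a nearby gene, whatever element lies under the peak.

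The RefSeq start windows of the receptor genes rarely lay under a peak. RefSeq promoter windows of 300 bases around the start given by RefSeq (GRCm38.p6, the mm10 build of the peaks) were at hand for 944 olfactory receptor genes. There were 948 windows in all. A peak overlapped 8 of these windows (0.844%), against 16383 of the 31903 windows of other genes (51.4%). The share depends on the RefSeq starts, which need not be transcription starts. The Olfr1511 and Olfr95 windows below both hold, at the same place near their end, an ATG that opens a reading frame. There the start used can be the start codon. The peak table's own annotation places 30 of the 271 peaks in its promoter class. The median GC content of the receptor windows was 35%, against 52.7% for all windows. Higher promoter-class peaks of the table, such as that of Olfr646, overlapped none of the receptor windows. The 4 overlapped windows whose peaks held the most counts are shown here, all 4 under peaks that the table classes as exon. They read 5′ to 3′ on the gene's strand, with matches to the RUNX, PU.1, GATA, ETS, AP-1, homeodomain, Ebf, TATA box and CTCF motifs in capitals.
Olfr420: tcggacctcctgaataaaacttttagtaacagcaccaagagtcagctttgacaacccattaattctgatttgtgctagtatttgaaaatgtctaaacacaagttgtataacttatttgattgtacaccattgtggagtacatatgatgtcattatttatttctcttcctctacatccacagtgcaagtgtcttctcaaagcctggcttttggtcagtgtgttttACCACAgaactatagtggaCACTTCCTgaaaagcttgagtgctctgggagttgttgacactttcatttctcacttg
Olfr1511: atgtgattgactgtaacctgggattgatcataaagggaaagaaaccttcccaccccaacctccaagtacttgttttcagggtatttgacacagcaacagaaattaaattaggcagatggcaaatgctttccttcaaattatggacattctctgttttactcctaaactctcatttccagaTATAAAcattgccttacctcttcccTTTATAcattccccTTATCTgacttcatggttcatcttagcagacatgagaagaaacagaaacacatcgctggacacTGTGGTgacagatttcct
Olfr95: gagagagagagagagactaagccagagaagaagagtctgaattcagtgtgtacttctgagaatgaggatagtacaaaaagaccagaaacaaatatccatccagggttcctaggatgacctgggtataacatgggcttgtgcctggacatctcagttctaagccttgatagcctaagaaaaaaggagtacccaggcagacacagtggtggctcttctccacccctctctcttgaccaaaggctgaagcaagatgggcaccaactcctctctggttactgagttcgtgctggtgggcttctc
Olfr1510: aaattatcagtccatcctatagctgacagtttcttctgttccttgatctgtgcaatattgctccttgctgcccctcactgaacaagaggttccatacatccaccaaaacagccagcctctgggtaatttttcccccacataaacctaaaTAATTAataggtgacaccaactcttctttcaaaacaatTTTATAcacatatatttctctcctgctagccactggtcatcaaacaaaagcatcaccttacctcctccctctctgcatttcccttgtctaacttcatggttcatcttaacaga

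The Olfr420 window (chr1:174158472-174158771, plus strand) held 1 match to the RUNX letters and 1 to the PU.1 letters, both under the peak; RUNX and PU.1 are transcription factors of blood progenitors. The Olfr1511 window (chr14:52390722-52391021, minus strand) held a RUNX match, a GATA match and 2 TATA boxes, all 4 under the peak. Its RUNX match lies after the ATG named above, inside the open reading frame. The Olfr95 window (chr17:37211802-37212101, minus strand) held no match to these motifs. The Olfr1510 window (chr14:52410878-52411177, minus strand) held a homeodomain match and a TATA box, neither of them under the peak. The letters searched on both strands were TGTGGT for RUNX, AGGAAGTG for PU.1, AGATAA for GATA, CCGGAAGT for ETS, TGANTCA for AP-1, TAATTA for homeodomain factors, CCCNNGGG for Ebf and TATAAA for the TATA box, with CTCF searched as a longer motif. The short CCAAT box (CCAAT) and E-box (CANNTG) were also searched and are not capitalised. The ETS and PU.1 letters share the run GGAAGT but differ in the base before it, so the same run cannot match both.

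Over all 948 receptor windows, the homeodomain letters were in 18.6%, against 5.29% of all 32851 promoter windows, and the TATA box was in 41.0%, against 13.6%. Homeodomain factors such as Lhx2 and Emx2 and the Ebf factors are known regulators of receptor genes in the nose. The Ebf letters were in 3.06% of receptor windows and 13.7% of all, the ETS letters in 0% and 3.89%, the PU.1 letters in 1.69% and 4.07%, and the CTCF motif in 0.211% and 2.28%. The RUNX letters were in 20.8% and 16.8%, the GATA letters in 28.0% and 11.2% and the AP-1 letters in 13.5% and 7.81%. The CCAAT box was in 40.6% and 37.4%, and the E-box in 77.5% and 72.3%. The AT-rich homeodomain, TATA box and GATA letters were more frequent in these AT-rich windows, and the GC-rich ETS, Ebf and CTCF motifs rarer. Letters of mixed composition went either way, with RUNX and the E-box more frequent and PU.1 rarer. Of the 8 windows under a peak, 2 held the RUNX letters, 1 the PU.1 letters, 1 the GATA letters, 2 the homeodomain letters, 2 the CCAAT box, 4 the E-box and 4 the TATA box. A match is a run of letters and not a measured binding site.

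The peak over the Olfr420 start (chr1:174158575-174159642) had 472 and 289 counts in the wild type libraries against 403 and 312 in the Helios null libraries. The peak over the Olfr1511 start had 328 and 130 counts in wild type against 325 and 261 in Helios null. The peak over the Olfr95 start had 171 and 132 against 134 and 140 counts, and that over the Olfr1510 start 107 and 37 against 86 and 94. In CPM (normalised counts scaled to library size) the genotypes did not overlap at Olfr420, with 15.7 and 18.7 in wild type against 13.3 and 13.6 in Helios null, and overlapped at the other 3. The log2 fold changes (Helios null over wild type) were -0.35 at Olfr420, -0.42 at Olfr95 and 0.19 at both Olfr1511 and Olfr1510, and none passed the test over all peaks.

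Most of the 271 peaks lay outside receptor genes. RefSeq places 43 of them over an olfactory receptor gene and 228 over none, and 187 overlapped no annotated gene at all. The median distance to the assigned gene was 1646 bp and the largest 87690 bp; 92 peaks touched the gene they were assigned to as the table draws it, and 221 lay within 10 kb of it. By the table's classes there were 97 distant promoter, 58 intergenic, 34 exon, 30 promoter-TSS, 29 intron and 23 TTS (transcription end) peaks. The promoter class was 11.1% of the olfactory receptor peaks and 15.2% of all peaks. Only 5 of its 30 members overlapped a receptor gene in RefSeq, and the other 25 were placed in it by the transcripts of the table's own annotation.

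Some of these regions carry elements that blood cells use. Genes for transfer RNA, which every cell transcribes, lay under 8 of the 271 peaks (2.95%), against 201 of all peaks (0.154%). Together these 8 peaks covered 10 tRNA genes: 5 of the peaks were assigned to the pseudogene Olfr1421-ps1 on chromosome 19, 2 to Olfr1368 on chromosome 13 and 1 to Olfr750 on chromosome 14. Their median level was 10.1 CPM, close to the 9.26 CPM of all tRNA-gene peaks and above the 2.10 CPM of all 271. Another 11 peaks overlapped a protein-coding gene of another family, with a median level of 1.51 CPM. Among these genes were Gm1966, Clec5a (a myeloid lectin receptor) and Cd163l1. The share of all peaks that do so was not counted.

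The beta-globin genes, which encode a chain of the oxygen carrier of red cells, lie within an olfactory receptor cluster on chromosome 7, and 12 peaks fell within 200 kb of a beta-globin gene. The highest was the Olfr65 peak (chr7:103909513-103910977), 56306 bp from Hbb-y, the embryonic beta-like globin, with 343 and 313 counts in wild type against 464 and 344 in Helios null. The other 11 of these peaks were much lower, from 13 counts to 112 counts in any library, and the median level of the 12 was 1.41 CPM.

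The peaks were unevenly spread over the genome's receptor clusters. RefSeq lists 1427 olfactory receptor genes with functional and pseudogene copies together, so 11.2% had an assigned peak. Chromosome 2 carries 377 receptor genes, and 10 of them (2.65%) had a peak, while chromosome 9 had 9 of 179 and chromosome 10 had 3 of 80. Chromosome 7 carries 294 and 47 of them (16.0%) had a peak. The share was higher on some chromosomes with few receptor genes: 14 of 34 on chromosome 1, 4 of 5 on chromosome 3 and 3 of 5 on chromosome 8. Chromosomes 12 and X, with 3 and 8 receptor genes, had none. Peaks less than 1 Mb apart formed 46 loci, of which 11 held a single peak and the largest held 41, on chromosome 7 from 102483728 to 105248493. Peaks of 1 locus share their surroundings and are not independent of each other.

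Among genes, 103 had 1 peak. The pseudogene Olfr1421-ps1 had 12 peaks between 12002135 and 12013575 on chromosome 19, with levels from 2.92 to 18.8 CPM, and its nearest other protein-coding gene was Osbp, which encodes an oxysterol-binding protein. Olfr1402 had 8 peaks, Olfr1368 had 7 and Olfr225 had 6, while Olfr1398-ps1 and Olfr15 had 5 each. The nearest other coding gene was Foxo1, a forkhead transcription factor, for the Olfr1398-ps1 peaks, Mprip for those of Olfr225 and Trim27 for those of Olfr1368. Names ending in -ps mark pseudogenes: 25 such genes held 52 of the 271 peaks.

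The olfactory receptor peaks were low. Their median level over the 4 libraries was 2.10 CPM, against 3.16 CPM for all peaks, and 104 of them (38.4%) were above the median of all peaks. They were also narrower, with a median width of 300 bp against 404 bp; per kb of peak the medians were 6.80 and 8.16 CPM. Every one of them had at least 1 count in each library, and 34 were above 10 CPM. The gap was widest in the promoter class, with a median of 1.92 CPM against 8.90 CPM for all promoter peaks, and smallest in introns, with 2.49 CPM against 2.83 CPM. A count reflects both how many cells had the site open and how much was cut in each, which cannot be told apart here.

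**Figure D1:**
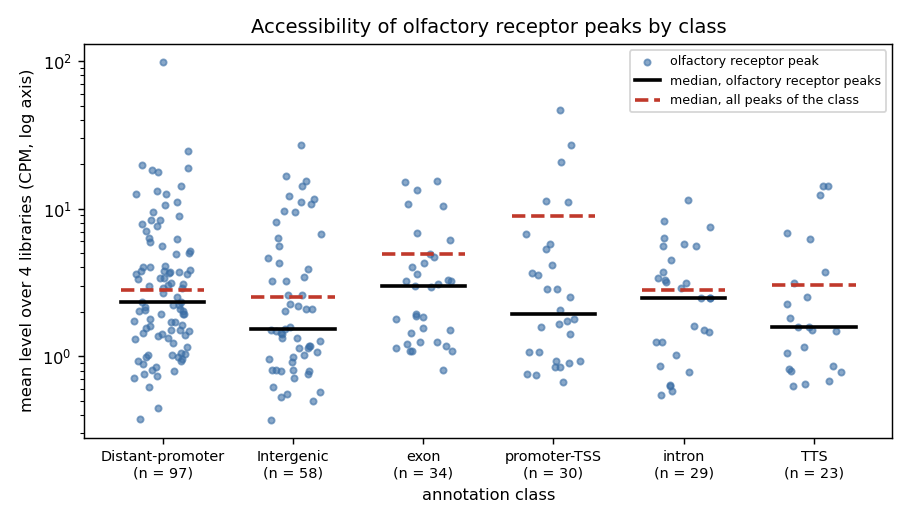
Mean level of each olfactory receptor peak over the 4 libraries (CPM, log axis) by annotation class. Points are peaks, black lines their medians and dashed red lines the medians of all peaks of the class; in the promoter-TSS class the medians are 1.92 and 8.90 CPM.

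The highest peak was that of Olfr647-ps1 (chr7:104169395-104170261), with 2821 and 1671 counts in wild type against 2989 and 2180 in Helios null. It stood at 101 ± 10.0 CPM (SD, n = 2) in wild type and 96.8 ± 2.45 CPM (SD, n = 2) in Helios null, so the groups overlapped. It lay 4579 bp from Olfm5. Next was a promoter-class peak of Olfr646 (chr7:104103850-104104793), with 1275 and 936 counts in wild type against 1266 and 956 in Helios null, or 51.4 ± 12.8 and 41.7 ± 0.0316 CPM (SD, n = 2 each). The remaining 8 of the 10 highest ran from the Olfr552 promoter-class peak, at 29.5 ± 7.19 and 24.6 ± 1.98 CPM (SD, n = 2 each), to a second Olfr1421-ps1 peak over a tRNA gene, at 19.8 ± 4.37 and 15.6 ± 2.31 CPM. Wild type library 2 was the highest library in all 10. That library, the shallowest, was the highest in 161 of the 271 peaks (59.4%) and in 37.1% of all peaks.

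**Figure D2:**
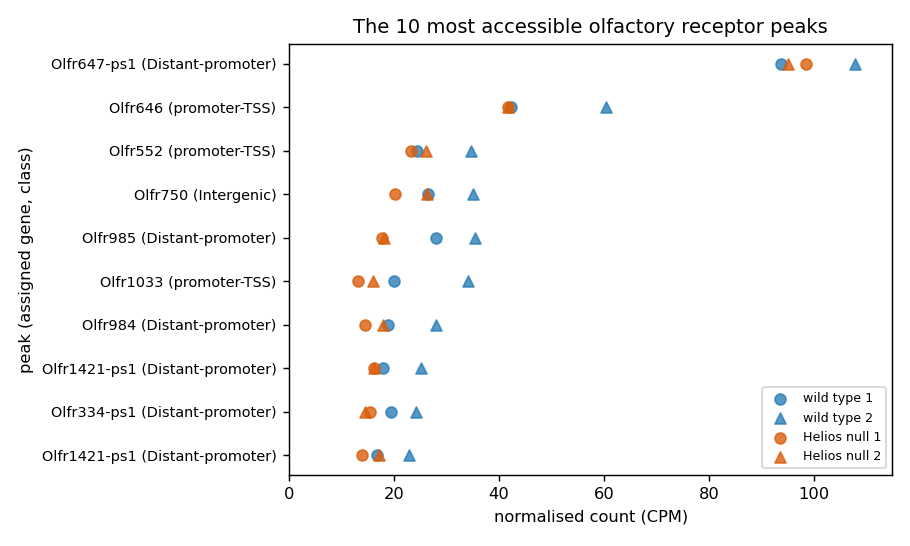
Normalised count (CPM) of the 10 olfactory receptor peaks with the highest mean level, by library; circles are number 1 and triangles number 2 of each genotype. Wild type library 2 is the highest point in every row. The groups do not overlap in 7 of the 10, all with Helios null lower, as in 28.3% of all tested peaks.

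The libraries held from 16033211 to 30290804 counts in peaks. The labels give library numbers 1 and 2 in both genotypes and do not say what they mean; summed counts over 4 Y-linked genes were 1715 and 1166 in the number 1 libraries and 5 and 2 in the number 2 libraries, so the number went with sex and with depth. Over 9 peaks of Ikzf2 the log2 fold changes ran from -0.80 to 0.09, with none passing the test (lowest adjusted p = 0.189, edgeR). Promoter peaks were found at 10 of 12 stem and progenitor marker genes, with a median level of 17.4 CPM. Procr and Ly6a had none, and Ly6a had no peak of any class assigned to it. Promoter peaks were also found at 4 of 6 stroma and endothelium, 3 of 6 erythroid and 3 of 6 mature myeloid markers. They were found at 2 of 6 B cell and 1 of 6 T and NK cell markers. Of 8 olfactory neuron markers 2 had one, Adcy3 and Gnal, with none at Omp, Cnga2 or Cnga4. The median levels of these other sets ran from 1.45 CPM (T and NK cell) to 12.7 CPM (olfactory neuron).

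In Helios null mice the olfactory receptor peaks lay lower on balance, yet none passed the test, which has no term for library number. Of the 270 tested peaks, 200 (74.1%) had a log2 fold change below 0, against 49.6% of all 130754 tested peaks. The median was -0.36, with quartiles of -0.72 and 0.03, against 0.01 for all. No olfactory receptor peak passed an adjusted p of 0.05 in edgeR's quasi-likelihood test with Benjamini-Hochberg adjustment over all peaks, where 8 peaks of the whole table did (0.00612%); the lowest adjusted p was 0.189. At an unadjusted p under 0.05, 50 were lower and 7 higher in Helios null, which is 18.5% and 2.59%, against 11.5% lower and 8.29% higher over all peaks. The groups did not overlap in 108 of the 270 with Helios null lower, against 28.3% of all peaks, and in 25 (9.26%) with Helios null higher, against 28% of all.

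The libraries stood in the same order by level and by share of counts. The median level of the 271 peaks was 2.19 and 2.58 CPM in wild type and 1.75 and 1.92 CPM in Helios null, while the median of all peaks ran from 3.09 to 3.16 CPM. They took 0.122% and 0.146% of the counts in wild type and 0.109% and 0.116% in Helios null; the genotypes did not overlap, but with 2 libraries a group an exact permutation test (two-sided) cannot go below its p of 0.333. Within number 1 the median log2 difference was -0.26 and within number 2 it was -0.42, against -0.01 and 0.01 for all peaks. Both numbers were lower in Helios null for 151 peaks (55.9%, against 37.2% of all) and higher for 38 (14.1%, against 37.0% of all). Without wild type library 2 the median was -0.18 and without wild type library 1 it was -0.50, so its size rests in part on the wild type library that is left in. The calls moved as well: 73 olfactory receptor peaks passed without wild type library 1, where 21.5% of all peaks did, and 6 without Helios null library 2, where 1.58% did. None passed without wild type library 2 or without Helios null library 1, where 0.781% and 0.0298% of all peaks did.

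The peak with the smallest p lay in an exon of Olfr229 (chr9:39909842-39910279). It had 165 and 143 counts in wild type against 72 and 59 in Helios null, or 7.36 ± 2.65 and 2.47 ± 0.141 CPM (SD, n = 2 each). Its log2 fold change was -1.56 (SE 0.32, adjusted p = 0.189, edgeR), and wild type stood above Helios null in both numbers, without overlap. In the authors' deposited table this peak has a log2 fold change of -1.36 and an adjusted p of 0.0219, the only one of the 75 olfactory receptor peaks with an adjusted p there that is under 0.05. The authors' deposited table calls 774 of 54782 peaks with an adjusted p (1.41%). DESeq2 on the deposited counts called this olfactory receptor peak and no other (adjusted p = 0.0223), where it called 1.36% of all peaks with an adjusted p.

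Further peaks without overlap lay on chromosome 9. The Olfr985 peak (chr9:40136482-40137830) had 841 and 548 counts in wild type against 535 and 415 in Helios null. The log2 fold change was -0.82 (SE 0.21, adjusted p = 0.189, edgeR). The Olfr875 peak (chr9:37782761-37784152) had 316 and 371 against 167 and 198 counts, and its log2 fold change was -1.28 (SE 0.37, adjusted p = 0.189). In both, each Helios null library stood below each wild type library once depth was taken into account.

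On chromosome 2 the promoter-class peak of Olfr1033 (chr2:86020051-86020985) had 602 and 528 counts in wild type against 400 and 365 in Helios null, which came to -0.89 on the log2 scale (SE 0.26, adjusted p = 0.189, edgeR). The Olfr1226 peak had 113 and 125 against 48 and 64 counts, a log2 fold change of -1.42. Both sit in long receptor arrays, with 78 and 53 olfactory receptor genes and only 6 and 1 peaks of the table, themselves included, within 0.5 Mb. The other 5 of the 10 peaks named for being lower were those of Olfr1499, Olfr701, Olfr258-ps1, Olfr417 and Olfr713, with log2 fold changes from -1.14 to -0.71 and no adjusted p under 0.189.

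Of the 10 peaks named for being higher in Helios null, all but that of Olfr524 had between 1 and 12 olfactory receptor genes within 0.5 Mb. The Olfr524 peak (chr7:140206982-140207376), inside Cd163l1 and with 24 olfactory receptor genes within 0.5 Mb, had 38 and 21 counts in wild type against 117 and 67 in Helios null, which came to 1.38 on the log2 scale (SE 0.34, adjusted p = 0.189, edgeR). A neighbouring Olfr524 peak, also inside Cd163l1, had 97 and 66 against 143 and 67 counts and a log2 fold change of 0.05. The Olfr718-ps1 peak (chr5:143132532-143133682), 19491 bp from the ubiquitin ligase gene Rnf216, had 178 and 47 against 309 and 192 counts, which came to 1.02 on the log2 scale (SE 0.32, adjusted p = 0.189). All 6 Olfr225 peaks were above 0, from 0.19 to 0.70, and the clearest had 300 and 108 counts in wild type against 494 and 257 in Helios null. None of these passed the test over all peaks.

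Among the 30 promoter-class peaks the median log2 fold change was -0.29, with 23 below 0, against 0.02 for all promoter peaks. Beside Olfr1033, the lowest p values on the lower side were at Olfr258-ps1, with 82 and 80 against 63 and 32 counts, and Olfr231, with 88 and 50 against 67 and 38. On the higher side they were at Olfr520, with 38 and 22 against 68 and 39 counts, Olfr1414, with 22 and 8 against 34 and 15, and Olfr432, with 91 and 61 against 123 and 83. Their log2 fold changes were 0.57, 0.49 and 0.16, each under 2 of its standard errors. The 8 tRNA-gene peaks were all below 0, with a median of -0.41, against -0.12 for the 201 tRNA-gene peaks of the table. The 12 peaks near beta-globin genes had a median of -0.39, but 0.01 within number 1 and -0.52 within number 2.

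The difference varied by chromosome. All 14 tested peaks on chromosome 9 were below 0 (median -1.15), as were all 13 on chromosome 2 (median -0.89), all 5 on chromosome 10 (median -1.30) and all 13 on chromosome 17 (median -0.36). On chromosome 7, 59 of 68 were below 0, with a median of -0.41. On chromosome 11 the median was 0.04, with 17 of 33 above 0, and the 5 peaks each on chromosomes 8 and 15 were all above 0, with medians of 0.15 and 0.42. The medians of all peaks on these chromosomes ran from -0.12 on chromosome 10 to 0.39 on chromosome 11.

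**Figure D3:**
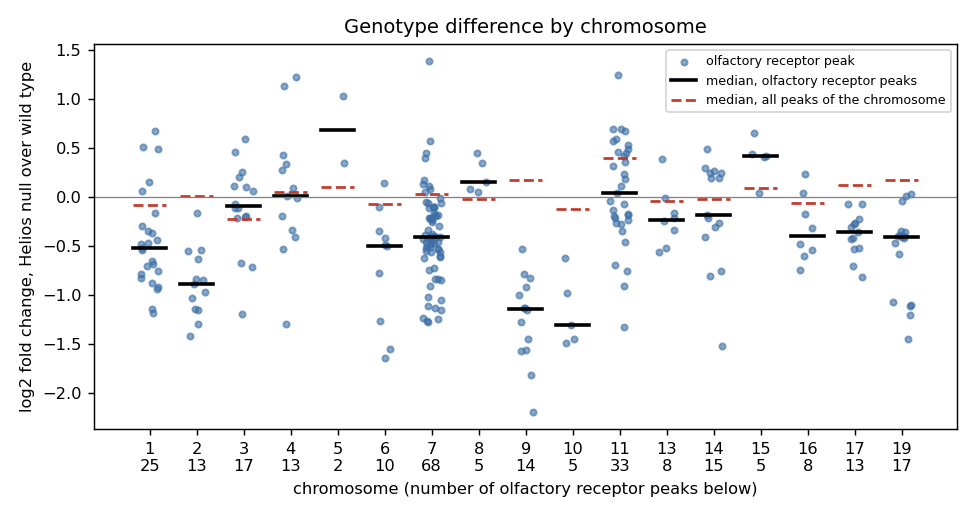
Log2 fold change (Helios null over wild type) of each tested olfactory receptor peak by chromosome; black lines are their medians and dashed red lines the medians of all peaks of the chromosome. All points on chromosomes 2, 9, 10 and 17 are below 0, and all on chromosomes 5, 8 and 15 above 0.

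The position of a peak went with its difference. Olfactory receptor peaks lay in regions with few other peaks, with a median of 57 peaks (each peak itself included) within 0.5 Mb against 85 for all peaks. The median number of protein-coding genes there was 29 against 10, a count that includes the receptor genes themselves. The 59 peaks with up to 40 peaks around them were all below 0, with a median of -0.84; all peaks of the table in such regions had a median of -0.76. With 40 to 60 peaks around them the medians were -0.40 and -0.41, and with 60 to 80 they were -0.25 and -0.13. The 54 with more than 80 had a median of 0.33, against 0.25 for all peaks there. Across the tested peaks Spearman's rho between log2 fold change and the number of peaks around was 0.65 for the 270 olfactory receptor peaks and 0.61 for all 130754; peaks share libraries and neighbours and are not independent, so these are descriptions. With offsets that remove the trend of each library with local peak number, an alternative chosen after the data were seen, the median of the olfactory receptor peaks was -0.07. Offsets for the trend with local protein-coding gene density, receptor genes included, moved it the other way, to -0.64. With chemoreceptor genes left out of that density, also an alternative chosen after the data were seen, the median was -0.38.

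**Figure D4:**
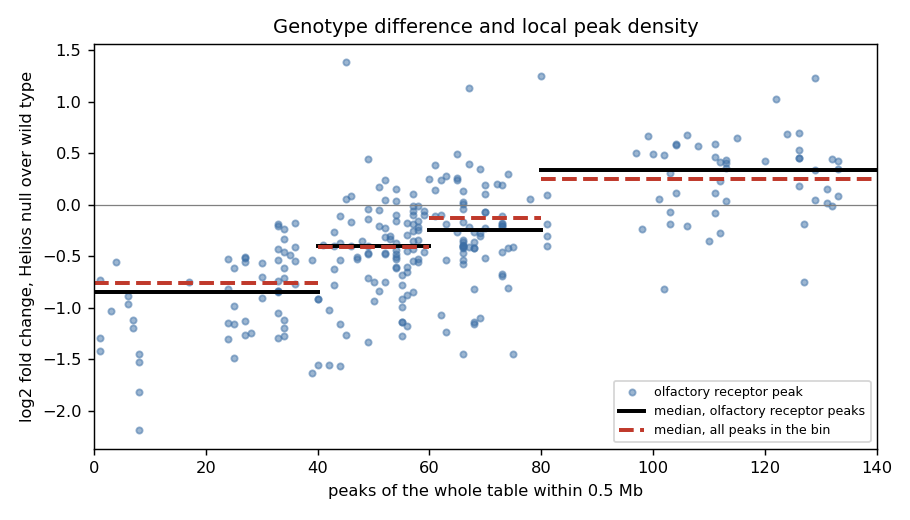
Log2 fold change (Helios null over wild type) of each tested olfactory receptor peak against the number of peaks of the whole table within 0.5 Mb. Black lines are the medians of the olfactory receptor peaks in 4 bins and dashed red lines those of all peaks in the bin, -0.84 and -0.76 in the lowest and 0.33 and 0.25 in the highest; the highest bin of all peaks goes on beyond the axis.

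Peaks of other genes inside the receptor clusters are set beside them here without a test. Where 20 to 40 olfactory receptor genes lay within 0.5 Mb, the 85 olfactory receptor peaks had a median of -0.52 and the 287 other peaks one of -0.43. Where 40 to 80 did, the medians were -0.47 for 47 and -0.50 for 34 peaks. Where 10 to 20 did, they were further apart, at -0.47 for 47 olfactory receptor peaks and -0.12 for 886 other peaks. Where up to 10 did, they were 0.06 for 92 and 0.12 for 3912 peaks. Peaks with no olfactory receptor gene around had a median of 0.00.

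Other chemoreceptor families had few peaks as well, and none passed the test. The vomeronasal type 1 and type 2 receptors, which detect pheromones, had 9 and 10 peaks with median log2 fold changes of -0.50 and -0.72. The trace amine-associated receptors had 14 peaks with a median of -0.47, all below 0, and the taste receptors 31 with a median of -0.48. Among other gene families, 28 peaks of the Ms4a genes, some of which blood cells use, had a median of 0.04. The 18 beta-defensin (Defb) peaks had one of 0.16. At an unadjusted p under 0.05, 3 Defb peaks were lower (16.7%) and 0 higher, against 11.5% and 8.29% of all peaks. The 9 peaks of keratin-associated protein (Krtap) genes had a median of -0.00, with 5 below 0 and 3 lower at an unadjusted p under 0.05. That median was 0.11 within number 1 and -0.55 within number 2. Local peak density differed between the families. The median number of peaks within 0.5 Mb was 54 and 48 for vomeronasal types 1 and 2, 62 for trace amine-associated and 44 for taste receptors. It was 89 for Ms4a, 79.5 for Defb and 50 for Krtap. Whether density accounts for the family medians was not tested.

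Downstream of the receptors, a list of 15 olfactory signalling genes, which holds the G protein Gnal, the cyclase Adcy3, the channel subunits and the marker Omp, had 96 peaks, 11 of them in the promoter class. None passed the adjusted test; at an unadjusted p under 0.05, 7 were lower (7.29%) and 5 higher (5.21%), against 11.5% and 8.29% of all peaks, and the median was -0.08. The lowest p values were at a peak assigned to Omp but outside that gene, with 21 and 11 counts in wild type against 81 and 28 in Helios null (log2 fold change 1.48, adjusted p = 0.190, edgeR), at 2 intron peaks of the phosphodiesterase Pde1c at -1.11 and -1.09, and at a peak of Ric8b, a chaperone of the olfactory G protein, at 0.64.

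A list of 21 genes known to regulate receptor choice in the nose had peaks at 19 genes, 111 in all, and none passed the adjusted test. At an unadjusted p under 0.05, 8 were lower (7.21%) and 11 higher (9.91%), against 11.5% and 8.29% of all peaks, with a median of -0.09. A peak assigned to Ldb1, a cofactor of Lhx2 and also of blood GATA complexes, was classed as intergenic. It had 185 and 68 counts in wild type against 386 and 231 in Helios null. The log2 fold change was 1.10 (SE 0.27, adjusted p = 0.189, edgeR). Ebf1, a B cell factor as well as an olfactory one, had 3 intron peaks among those with the lowest p, at -1.09, -1.92 and -1.11; the first had 128 and 66 against 52 and 53 counts.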

How the data were processed

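Fast-ATAC libraries of sorted Lin-Sca1+ckit+ bone marrow cells came from 2 wild type and 2 Helios null mice, per the labels. The submitters' processing notes name HOMER, DESeq, Bowtie2 2.3.4.3 and bcl2fastq 2.17.1.14, and the mm10 build; which peak caller was run is not stated there. The deposited table holds raw counts per peak and library, each peak's assigned gene and class, and the authors' normalised signal (mean of scaled counts), log2 fold change and p-value columns.

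Peaks with an Olfr symbol were selected. The members and gene lists were chosen with earlier results of these data known. Counts were tested over the whole table with edgeR 4.0.16 (R 4.3.3): default expression filter by group (130754 of 130941 peaks kept), TMM normalisation, quasi-likelihood test of genotype, Benjamini-Hochberg adjustment over all peaks, threshold 0.05. The Olfr1398-ps1 peak that the filter removed had 9, 5, 16 and 8 counts. Fold changes are Helios null over wild type; the standard error is the log2 fold change divided by the square root of F. CPM used TMM-scaled library sizes. Named peaks were those with the highest levels, the smallest p-values without overlap at or above the median level, the promoter class, genes with most peaks and those near beta-globin genes; a count near other neighbouring genes is not reported here. Positions, tRNA genes and promoter sequences came from RefSeq (GRCm38.p6); all 160 symbols matched. No genome was used, so peak sequences and peak GC content are not analysed here. Scripts were tested on simulated data. Alternatives used limma 3.58.1 and DESeq2 1.42.0, other scalings, filters and offsets, a replicate block and leaving out each library.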

Additional observations from a re-analysis of the deposited data

How the results depend on the processing

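The median count of the olfactory receptor peaks per library ran from 40 to 66, with 2 libraries a group. The library numbers are shared by both genotypes without a stated meaning; same-numbered libraries deviated together with a correlation of 0.371 over 130754 peaks, which for 2 pairs is a hint from the data and not the design. With the number as a replicate block, 30595 peaks of the table passed, 63 of them olfactory receptor peaks (57 lower and 6 higher) and 14 of the named ones; that is 23.3% of the olfactory receptor peaks and 23.4% of all. With gene density offsets and the replicate block, 21974 peaks passed (16.8% of all), 112 of them olfactory receptor peaks (41.5%, 107 lower and 5 higher) and 14 named ones, with a median of -0.62; with gene density offsets alone the median was -0.64.

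Leaving out a library moved the count over all peaks between 39 and 28120, the olfactory receptor count between 0 and 73, the named count between 0 and 15 and the median between -0.50 and -0.18. Without wild type library 1, 28120 peaks passed and 73 of the olfactory receptor peaks (21.5% and 27.1%); without wild type library 2 it was 1022 and 0, without Helios null library 1 it was 39 and 0, and without Helios null library 2 it was 2066 and 6. The count over all peaks was 4 with limma-voom, 778 with DESeq2 and 24 with peak density offsets. DESeq2 called 1 olfactory receptor peak, the named Olfr229 peak (adjusted p = 0.0223). Peak density offsets gave a median of -0.07 and turned the Olfr1033 promoter peak to 0.21. The Olfr432 promoter peak turned to -0.14 with gene density offsets, -0.12 with those and the block, and between -0.04 (without wild type library 1) and 0.35 with a library left out. The median wild type level was 2.42 CPM, or 8.01 CPM per kb of peak. The cause of these shifts was not tested. DESeq2 size factors, total counts, loess offsets, either filter and gene density without chemoreceptors left the olfactory receptor count at 0 and the median between -0.38 and -0.30.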
